A study of Arabidopsis thaliana with 10 samples.

Results

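Late maturation of the Arabidopsis thaliana inflorescence stem was described by setting the transcript levels of wild-type segment III (WT III) against those of wild-type segment II (WT II). Both are wild type of the Col accession, taken from stems 20 cm tall and measured from the top, WT III at 10 to 12 cm and WT II at 5 to 7 cm. The comparison uses 2 of the 10 samples of the series, and 17621 of the 23615 listed genes, those that reached an FPKM of 1 in WT III or WT II. FPKM is the number of fragments scaled to transcript length and to the mapped fragments of the library. The younger segment WT I, at 0 to 3 cm, and the library labelled atx1 II, given as 5 to 7 cm of the mutant of the histone methyltransferase gene ATX1, appear only where their levels are set beside these. All plants shared the same growth conditions of 16 h light and 8 h dark at 22 °C. The labels name whole stems and do not say how many plants were pooled.

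An inflorescence stem matures from its tip downwards. Its cells first divide and elongate, and fibres and vessels then lay down a secondary wall of cellulose, xylan and lignin under the NAC factors NST1, SND1 and the VND proteins and the MYB factors below them, of which MYB46 and MYB83 are the best known. Around the vascular tissue lie a green, photosynthetic cortex and an epidermis that is coated with wax. Arabidopsis also keeps glucosinolates, sulfur-rich defence compounds made from methionine or tryptophan, in its stems and leaves.

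Each side of the comparison is 1 library, so the values have no error and no test, and every difference below describes these libraries only. A difference is log2(FPKM + 1) in WT III minus that in WT II, less 0.20, which was its median over the 17621 genes. A gene is called higher or lower in WT III when this centred difference reached 1 in size, that is 2-fold. By that rule 273 genes were higher in WT III, or 1.55% of those compared, and 772 were lower, or 4.38%. The other 94.1% lay within 2-fold, and the counts for gene lists are read against these shares. Among the 10457 genes that reached 10 FPKM in WT III or WT II, the shares were 1.41% higher and 4.68% lower. The balance between higher and lower rested on the centring. On FPKM as deposited, 538 genes (3.05%) were higher and 444 (2.52%) lower, so that higher genes made up 54.8% of the genes past 2-fold without centring and 26.1% with it. The steps of 1 fragment in short genes gave depths near 19200000 fragments for WT III and 18800000 for WT II, so 1 FPKM on 1 kb stands for about 19 fragments in either library.

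**Figure D1:**
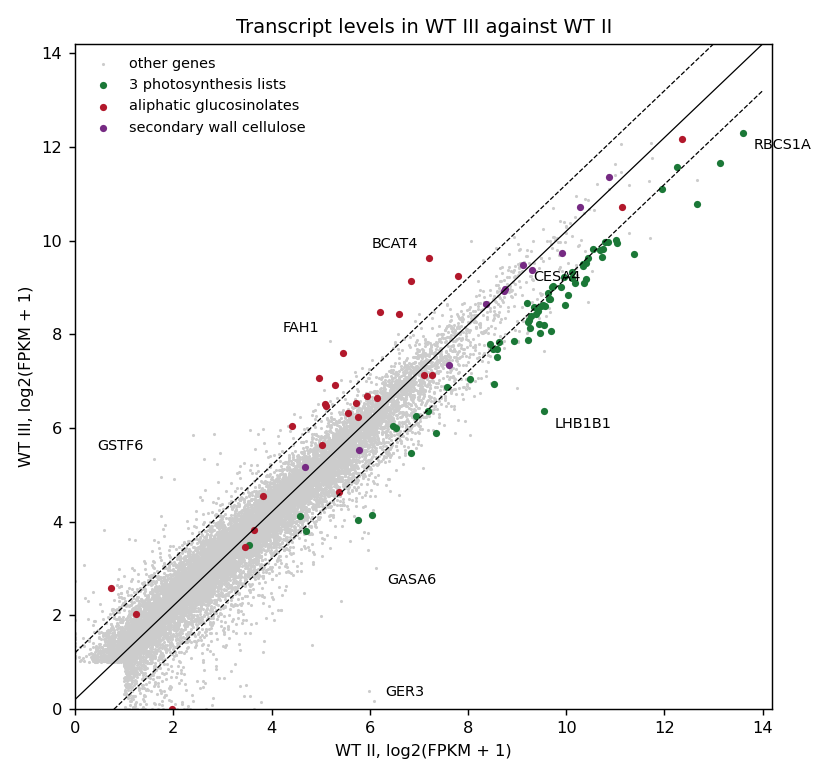
Each point is 1 of the 17621 compared genes, with log2(FPKM + 1) in WT III on the vertical axis and in WT II on the horizontal axis; the solid line is the median difference and the dashed lines mark 2-fold on either side of it. Most photosynthesis genes lie along or below the lower dashed line, a group of glucosinolate genes lies above the upper one, and the cellulose genes follow the solid line.

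Markers of the stem tissues were present in both libraries. The summed FPKM of 3 fibre markers (SND1, NST1, NST2) was 190.0 in WT III and 155.0 in WT II, and no marker of that set passed 2-fold. For 5 vessel markers it was 416.3 in WT III and 594.5 in WT II, with VND7 lower by the rule. XCP2 held most of that sum (249.73 in WT III, 402.87 in WT II), and MC9 alone had a positive centred difference (0.33). For 6 phloem markers it was 463.4 in WT III and 824.2 in WT II, with SWEET11 and SWEET12 lower. SUC2 alone of the phloem markers had a positive centred difference (0.13). The 4 markers of green cortex summed to 6171.8 in WT III and 14498.8 in WT II, and 2 of them, RBCS1A and PSAF, were lower. RBCS1A held most of both sums, at 5041.32 in WT III and 12468.15 in WT II. Cambium markers (4 genes) summed to 135.6 in WT III and 87.3 in WT II, guard cell markers (4) to 25.6 in WT III and 25 in WT II, and starch sheath markers (3) to 54.8 in WT III and 52.5 in WT II, with none past 2-fold. Of the 6 epidermal markers CER4 was the lower one, PDF1 was listed at 0 in WT III and at 0.04 in WT II, and CER6 held most of the sum of 440.4 in WT III and 446.4 in WT II. Flower markers were close to absent, with AP3, PI and AG listed at 0 in both. In tissue samples of mixed cells, fewer cells of a type and less RNA per cell cannot be told apart, which applies to every group below.

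The machinery of the secondary wall was expressed at like levels in WT III and WT II. Over 104 compared genes of 6 wall lists, 2 were higher in WT III, against 1.55% of all compared genes, and 6 lower, against 4.38%. The counts lay near those shares, and the median centred difference of the wall genes was -0.12. Together these genes took 3.69% of all FPKM in WT III and 3.03% in WT II, against 0.48% in WT I. The fibre switch SND1 (AT1G32770) was at 130.69 FPKM in WT III and 95.81 in WT II, and its partner NST1 (AT2G46770) was at 44.3 in WT III and 44.75 in WT II. Neither passed 2-fold, with centred differences of 0.24 and -0.22. MYB46 (AT5G12870) was at 35.25 FPKM in WT III and 48.32 in WT II (-0.65), and its homologue MYB83 (AT3G08500) at 4.19 in WT III and 4.56 in WT II (-0.30).

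Among 13 compared NAC regulators the 1 gene past 2-fold was VND7, a master switch of vessel formation, at 2.48 FPKM in WT III and 5.88 in WT II (-1.18). The 6 vessel regulators of the list had a median of -0.57 and the 5 genes of the fibre and SND group one of -0.15. VND4 followed at 9.01 FPKM in WT III and 15.04 in WT II (-0.88), and XND1, which holds back xylem differentiation, at 10.34 in WT III and 14.74 in WT II (-0.67). None of the 23 MYB and other regulators passed 2-fold, and their median of -0.06 was close to that of all genes. The widest differences in that list were those of MYB61 (9.22 FPKM in WT III, 16.59 in WT II, -0.98) and of the zinc finger gene C3H14 (13.12 in WT III, 22.37 in WT II, -0.93). On the other side stood MYB55, at 18.05 FPKM in WT III and 8.73 in WT II (0.77). MYB103, a regulator of the cellulose and syringyl lignin branch, was at 163.4 FPKM in WT III and 186.97 in WT II (-0.39).

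Secondary wall cellulose genes were the most even of the 6 secondary wall lists. All 11 lay within 0.47 of the median of all genes on the log2 scale, and their own median was 0.02. The 3 catalytic subunits of the synthase were CESA4 (AT5G44030) with 714.52 FPKM in WT III and 553.74 in WT II (0.17), CESA7 (AT5G17420) with 500.76 in WT III and 429.85 in WT II (0.02) and CESA8 (AT4G18780) with 401.36 in WT III and 328.51 in WT II (0.09). At the edges of the list were TED6, which interacts with the synthase, at 160.36 FPKM in WT III and 193.94 in WT II (-0.47), the microtubule-associated MAP70-5 at 45.47 in WT III and 53.75 in WT II (-0.44), and the fasciclin-like protein gene FLA11 at 2635.8 in WT III and 1866.37 in WT II (0.30). The CESA genes for primary walls and their partners (9 genes, median 0.18) had none past 2-fold either, with CESA1 at 188.54 FPKM in WT III and 125.53 in WT II (0.38) and COB, which orients cellulose, at 141.8 in WT III and 94.21 in WT II (0.38).

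Xylan genes leaned to the lower side. Of 28, 24 had a negative centred difference, with a median of -0.33. By 2-fold 2 were lower, against 4.38% of all compared genes, and none higher. On FPKM as deposited 1 was lower and the median was -0.13, so the lean rested in part on the centring. GXM2, which methylates the glucuronic acid side groups of xylan, was at 18.27 FPKM in WT III and 46.27 in WT II (-1.50), while its relatives GXM1 (119.25 in WT III, 125.01 in WT II) and GXM3 (108.74 in WT III, 114.75 in WT II) lay within 2-fold. F8H, a homologue of FRA8 in making the reducing end of xylan, was at 3.11 FPKM in WT III and 6.34 in WT II (-1.04). The 3 genes that supply UDP-xylose had a median of -0.83, led by UXS6 (94.96 FPKM in WT III, 151.76 in WT II, -0.87). Backbone genes differed less, at a median of -0.27 over 12, and IRX15 and PARVUS lay slightly to the other side (0.15 and 0.25).

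Lignin monomer genes leaned to the higher side, and FAH1 stood far from the rest. FAH1 (AT4G36220), ferulate 5-hydroxylase, which commits precursors to syringyl lignin, was at 230.48 FPKM in WT III and 35.49 in WT II, a ratio of 6.49 and a centred difference of 2.46. Its level was 12.66 FPKM in WT I and 154.7 in the library labelled atx1 II. FAH1 was the 1 higher gene among 17 compared, of which 15 had a positive difference, and the list median was 0.43. OMT1 (AT5G54160), the methyltransferase that acts after FAH1 on the syringyl branch, was at 1652.31 FPKM in WT III and 844.8 in WT II (0.77), within 2-fold. The ligase genes 4CL2 (43.09 FPKM in WT III, 20.5 in WT II, 0.83) and 4CL1 (967.81 in WT III, 516.28 in WT II, 0.70) were close to it. Entry steps from phenylalanine to the coenzyme A esters had a median of 0.49 over 8 genes and later steps one of 0.25 over 9. CYP98A3 (188.73 FPKM in WT III, 191.96 in WT II, -0.23) and CAD4 (96.04 in WT III, 86.48 in WT II, -0.05) were the genes with a negative difference.

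Genes that bring lignin precursors and methyl groups showed smaller differences. None of 12 methyl donor genes passed 2-fold (median 0.16), the widest being the methionine synthase gene ATMS2 at 1206.83 FPKM in WT III and 735.43 in WT II (0.51). MTO3, for an S-adenosylmethionine synthetase, followed at 343.13 FPKM in WT III and 237.08 in WT II (0.33). None of 16 shikimate and phenylalanine genes did so (median -0.02), with DHS3, of the entry step, at 561.42 FPKM in WT III and 294.66 in WT II (0.73), and ADT4, of the last step to phenylalanine, at 130.12 in WT III and 73.5 in WT II (0.61). SNG1, which makes sinapoylmalate, a sunscreen ester and another end point for the product of FAH1, was lower, at 114.01 FPKM in WT III and 257.45 in WT II (-1.37). It belongs to a list of 6 sinapate genes chosen after the values were seen, of which 3 were compared, and the others, REF1 and UGT84A3, lay within 2-fold.

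Lignin polymerisation went the other way from monomer synthesis. Of 12 compared laccases and peroxidases 11 had a negative centred difference, with a median of -0.44. By 2-fold 3 were lower, against 4.38% of all compared genes, and 1 was higher, against 1.55%. On FPKM as deposited 2 were lower and 1 higher, and the median was -0.24, so the lean rested in part on the centring. The peroxidase gene PRX66 was at 0.94 FPKM in WT III, 8.6 in WT II and 47.47 in WT I (-2.51 for WT III minus WT II). PRX47 was at 2.06 FPKM in WT III and 10.06 in WT II (-2.06), and the higher gene, PRX25, at 9.01 in WT III and 3.27 in WT II (1.03). Laccases couple monolignols in the wall. LAC2 was at 230.64 FPKM in WT III and 424.7 in WT II (-1.08), whereas the most abundant of them, LAC4, was at 1137.16 in WT III and 1021.27 in WT II (-0.05). Among 7 genes of xylem cell death none passed 2-fold. The peptidase genes XCP2 (249.73 FPKM in WT III, 402.87 in WT II, -0.89) and XCP1 (84.34 in WT III, 125.3 in WT II, -0.77) had negative differences, and VPE, a vacuolar processing enzyme gene, a positive one (373.43 in WT III, 198.16 in WT II, 0.71).

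**Figure D2:**
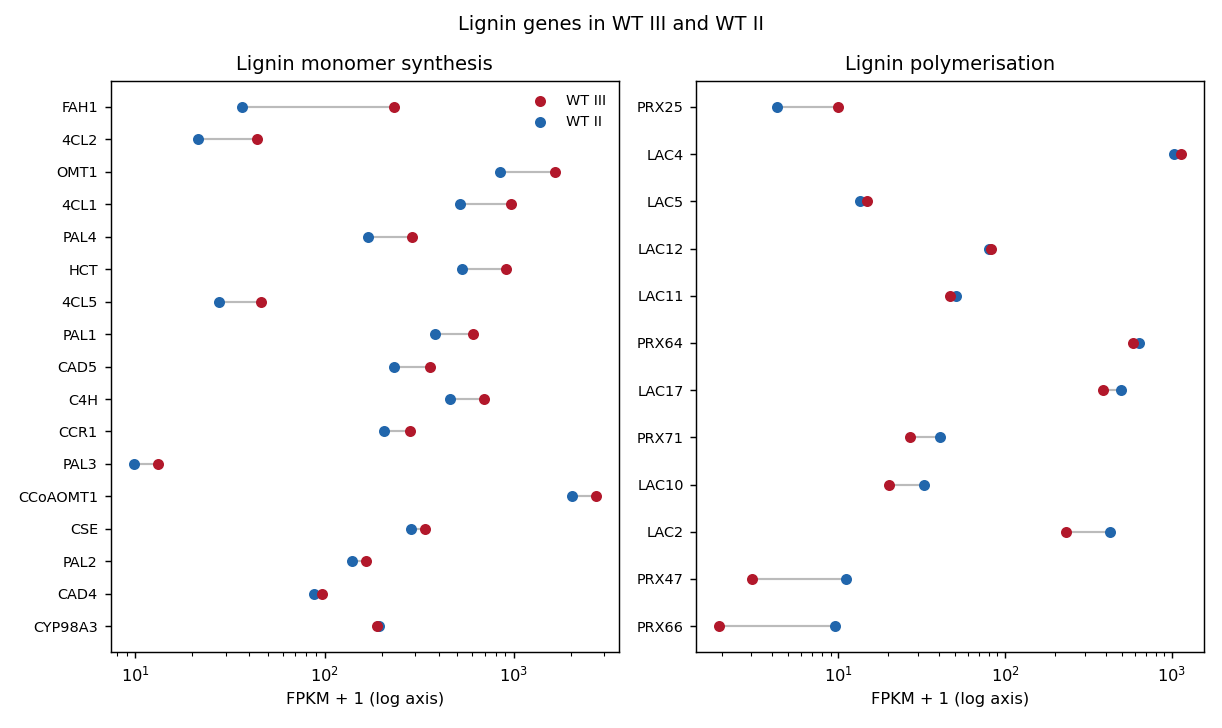
Deposited FPKM + 1 on a log axis for each compared gene of lignin monomer synthesis (left) and lignin polymerisation (right), with WT III in red and WT II in blue and genes ordered by centred difference. FAH1 has the widest gap on the left, and on the right most WT III points lie to the left of their WT II points, widest for PRX47 and PRX66.

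Photosynthesis genes were lower in WT III as a block. Of 69 genes for antennae, photosystems and carbon fixation, 52 were lower by 2-fold and none was higher, against 4.38% lower among all compared genes. All 69 had a negative centred difference, with a median of -1.12. They took 6.02% of all FPKM in WT III, 12.85% in WT II and 11.11% in WT I, so the share in WT II was close to that in WT I. The median of -1.12 stood near the limit of 2-fold, so the count depended on the scale. On FPKM as deposited 6 of 20 antenna genes, 11 of 30 photosystem genes and 9 of 19 carbon fixation genes were lower, and none was higher.

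In carbon fixation 16 of 19 genes were lower (median -1.13), and 3 of the 4 Rubisco small subunit genes had the widest differences. RBCS2B was at 1760.72 FPKM in WT III and 6508.78 in WT II (-2.09), and RBCS1B at 843.55 in WT III and 2668.69 in WT II (-1.86). RBCS3B was at 3226.25 FPKM in WT III and 9035.2 in WT II (-1.69), and RBCS1A at 5041.32 in WT III and 12468.15 in WT II (-1.51). These 4 genes are near-identical, and how reads that fit several copies were divided is not stated in the sources used here. Summed, they were at 10871.84 FPKM in WT III and 30680.82 in WT II, a centred difference of -1.70. GAPA-2, for the chloroplast glyceraldehyde phosphate dehydrogenase, was at 233.82 FPKM in WT III and 600.02 in WT II (-1.56). The carbonic anhydrase genes CA1 (1057.77 FPKM in WT III, 3338.76 in WT II, -1.86) and CA2 (412.27 in WT III, 1383.79 in WT II, -1.95) are in none of the lists and were picked after their values were seen.

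In the photosystems and electron transport list 23 of 30 genes were lower (median -1.14), and the differences ran from -1.81 to -0.73. PSAH2, a photosystem I subunit, was at 269.61 FPKM in WT III and 822.25 in WT II (-1.81). ATPD, a subunit of the chloroplast ATP synthase, was at 120.79 in WT III and 369.23 in WT II (-1.81). PSAN, also of photosystem I, was at 260.27 in WT III and 710.37 in WT II (-1.65), and PSBQ-1, of the oxygen-evolving complex, at 392.68 in WT III and 1010.45 in WT II (-1.56). Nuclear genes of the chloroplast NDH complex, a list added after the values were seen, were taken by symbols beginning with Ndh or Pns. Of 17, 9 were lower, against 4.38% of all compared genes, and none higher (median -1.03). PnsL3 was at 15.48 FPKM in WT III and 43.54 in WT II (-1.64), and PnsB3 at 33.44 in WT III and 91.55 in WT II (-1.63).

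In the antenna list 13 of 20 genes were lower (median -1.09). LHB1B1, one of the genes for the LHCB1 antenna protein, was at 80.66 FPKM in WT III, 748.74 in WT II and 21 in WT I (-3.40 for WT III minus WT II). LHB1B1 is one of 5 near-identical LHCB1 genes, which together were at 3616.31 FPKM in WT III, 9133.14 in WT II and 6629.58 in WT I. The summed difference of -1.54 was far smaller than that of LHB1B1 alone, whose own level is therefore uncertain. LHCB2.3 was at 16.58 FPKM in WT III and 65.45 in WT II (-2.12), and the 3 LHCB2 genes together at 157.52 in WT III and 275.83 in WT II (-1.01). LHCB4.3, a minor antenna gene, was at 58.68 in WT III and 162.75 in WT II (-1.66).

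Pathways tied to photosynthesis differed in the same direction by less. Photorespiration had 7 of 15 genes lower, against 4.38% of all compared genes, and none higher (median -1.0). Among the 7, GLDT, of glycine decarboxylase, was at 356.25 FPKM in WT III and 817.05 in WT II (-1.40). The catalase gene CAT2, also lower, was at 229.41 in WT III and 515.81 in WT II (-1.37). CAT2 was at 109.48 in WT I, below both. Chlorophyll synthesis had 4 of 16 lower, against 4.38% of all compared genes, and none higher (median -0.86). CHLH, for the large subunit of magnesium chelatase, was at 58.72 FPKM in WT III and 127.98 in WT II (-1.31), and CHLI1, for another subunit, at 41.95 in WT III and 85.41 in WT II (-1.21). The list of nuclear plastid ribosomal protein genes, also added after the values were seen, held only symbols beginning with PRPL, PRPS or PSRP. Of its 10 genes, 5 were lower, against 4.38% of all compared genes (median -0.97). PSRP3/1 was at 43.24 FPKM in WT III and 103.61 in WT II (-1.44), and PRPL28 at 45.22 in WT III, 103.68 in WT II and 323.45 in WT I.

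Chloroplast-encoded genes did not move as one. Of 57 compared, 16 were lower, against 4.38% of all compared genes, and 3 higher, against 1.55%, with a median of -0.69. The ribosomal protein genes RPS14 (ATCG00330, 12.51 FPKM in WT III, 61.54 in WT II, -2.41) and RPL14 (49.74 in WT III, 125.77 in WT II, -1.52) were among the lower ones. So was ATPH, of the ATP synthase, at 0.5 in WT III and 4.59 in WT II (-2.1). At about 19 fragments per FPKM and kb, the WT III value of ATPH rests on few fragments. The 3 higher ones were the photosystem II genes PSBC (173.81 FPKM in WT III, 64.85 in WT II, 1.21) and PSBD (312.25 in WT III, 120.46 in WT II, 1.17), and the gene listed as PB (ATCG00480; 767.23 in WT III, 317.45 in WT II, 1.07). Whether the libraries were made from polyadenylated RNA, which most chloroplast transcripts are not, is not stated in the labels. Light signalling genes, which also bear on greening, had none of 21 past 2-fold (median -0.05). The phytochrome-interacting factor genes PIF7 (0.89 FPKM in WT III, 2.05 in WT II, -0.89) and PIF5 (24.15 in WT III, 11.57 in WT II, 0.80) had the widest differences of that list, on either side.

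**Figure D3:**
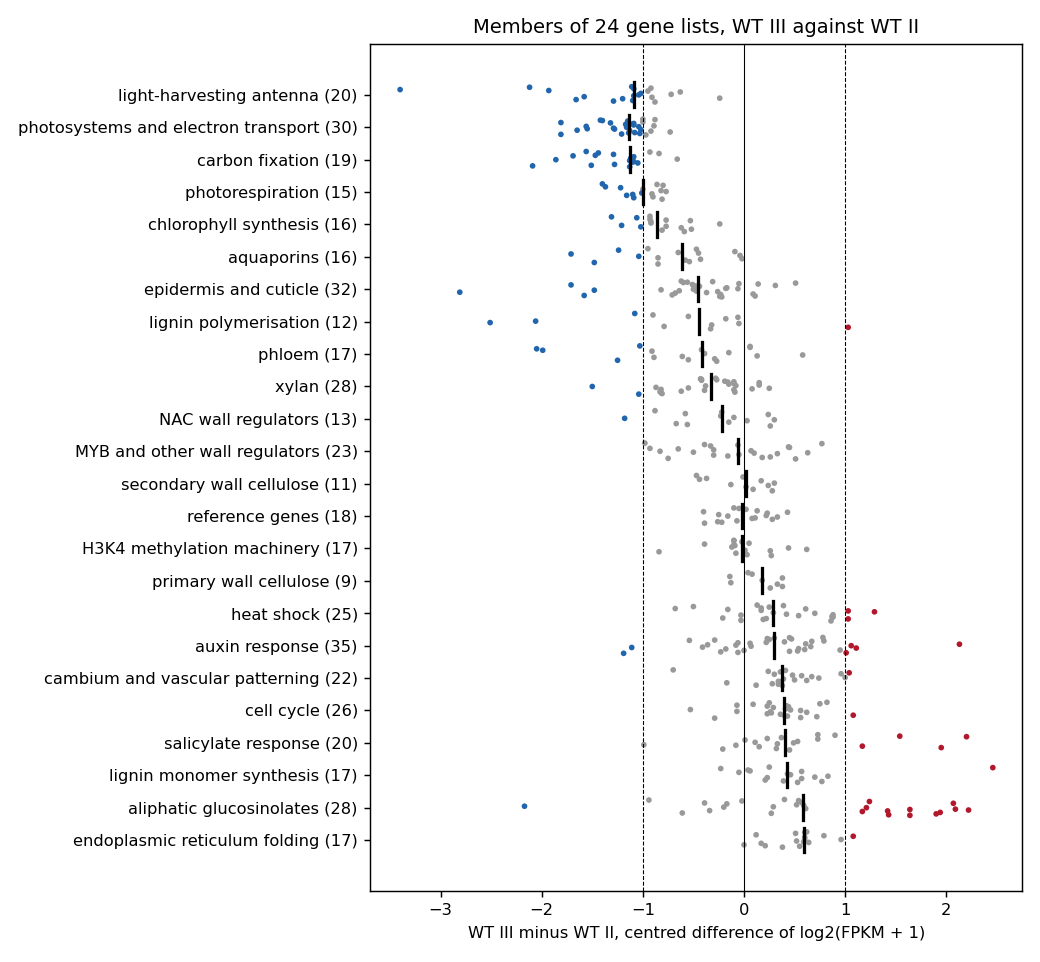
Each point is a compared gene placed by its centred difference, WT III minus WT II, with red for genes higher by 2-fold, blue for genes lower and grey for the rest; black bars are list medians, dashed lines mark 2-fold and the number of genes is in brackets. The 3 photosynthesis lists have medians between -1.14 and -1.09, the reference genes one of -0.02 and the aliphatic glucosinolate genes one of 0.58, with a separate set of points above 1.

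Aliphatic glucosinolate synthesis had the most higher genes of any list. Of 28 compared genes, 12 were higher by 2-fold, against 1.55% of all compared genes, and 1 was lower, with a median of 0.58. The higher ones followed the pathway. All 6 compared genes of methionine chain elongation were higher (median 1.92), as were 3 of 6 of core synthesis (median 0.93), 2 of 5 side-chain oxygenases (median 0.52) and 1 of 3 MYB regulators (median 0.59). None of 8 genes for transport and breakdown was higher (median -0.37). On FPKM as deposited, without centring, the counts were also 12 higher and 1 lower.

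BCAT4 (AT3G19710), the aminotransferase of the entry step of chain elongation, was at 796.36 FPKM in WT III, 147.41 in WT II and 24.34 in WT I. Its centred difference between WT III and WT II was 2.22, and it overlaps IKU2 in the annotation, whose reads could not be separated without strand. MAM1, the condensing enzyme of each elongation cycle, was at 562.11 FPKM in WT III and 113.7 in WT II (2.09), and its close copy MAM3, at 0.06 in WT III and listed at 0 in WT II, was not compared. The isomerase subunit genes IPMI2 (193.42 FPKM in WT III, 43.05 in WT II, 1.94) and IPMI1 (132.28 in WT III, 30.14 in WT II, 1.9) and the dehydrogenase gene IMD1 (345.2 in WT III, 95.58 in WT II, 1.64) complete the cycle. BAT5, which carries the intermediates across the chloroplast envelope, was at 89.48 in WT III and 33.05 in WT II (1.21).

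In the core pathway CYP79F1, which turns elongated methionine into aldoximes, was at 354.73 FPKM in WT III, 72.69 in WT II and 8.27 in WT I (2.07 for WT III minus WT II). With its near-identical neighbour CYP79F2 it summed to 359.73 in WT III and 73.36 in WT II (2.08). CYP83A1, of the following step, was at 605.92 FPKM in WT III and 221.89 in WT II (1.24). The later enzymes SOT17, SOT18 and UGT74C1 lay within 2-fold, at 0.27, 0.61 and 0.57. The regulator MYB29 was at 87.86 FPKM in WT III and 33.34 in WT II (1.17), and MYB28, which acts beside it, at 102.3 in WT III and 60.82 in WT II (0.54).

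The side of glucosinolate use looked different. The myrosinases TGG1 (1679.43 FPKM in WT III, 2235.66 in WT II, -0.61) and TGG2 (4615.46 in WT III, 5272.54 in WT II, -0.39), which hydrolyse glucosinolates, lay within 2-fold. So did the transporters GTR1 (-0.17) and GTR2 (-0.34). ESM1, which shifts the breakdown products towards isothiocyanates, was listed at 0 in WT III and was at 2.92 FPKM in WT II and 19.91 in WT I.

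**Figure D4:**
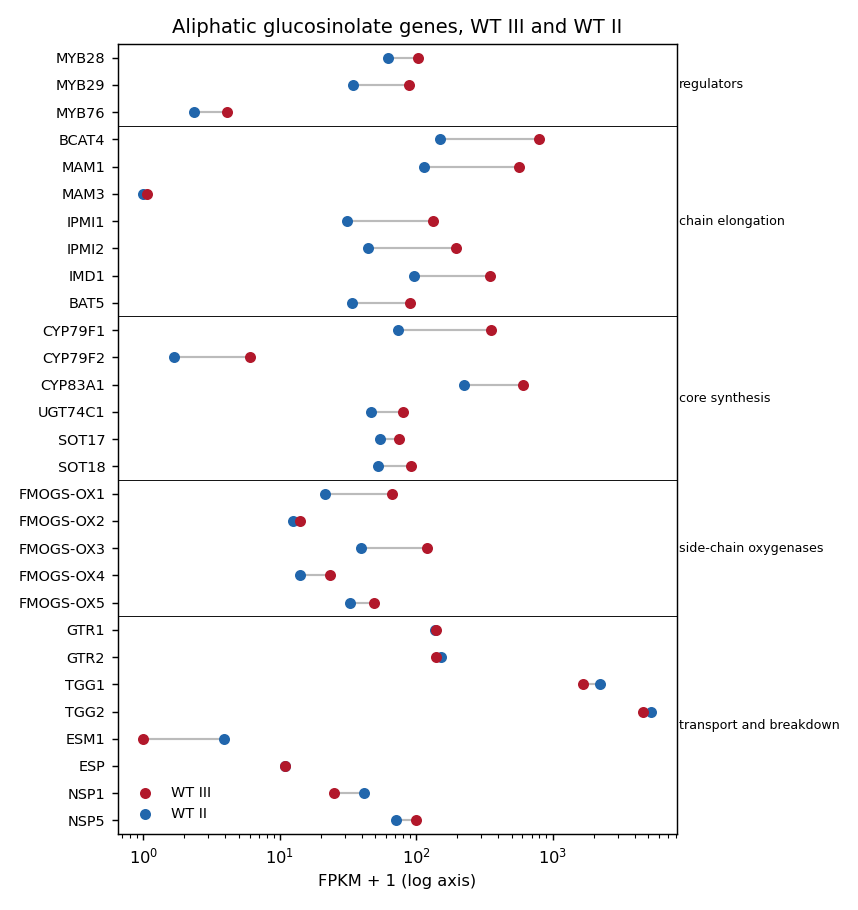
Deposited FPKM + 1 on a log axis for the 29 aliphatic glucosinolate genes of the list, WT III in red and WT II in blue, grouped by step. Every chain elongation gene but MAM3 has its WT III point well to the right of its WT II point, whereas transport and breakdown genes have points that lie close together, except ESM1.

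Indole glucosinolate genes did not share this difference. Of 21 compared, 2 were higher, against 1.55% of all compared genes, and none lower (median -0.12). Both higher ones modify the indole ring. IGMT4 was at 42.96 FPKM in WT III and 6.78 in WT II (2.3), and IGMT3 at 3.92 in WT III and 0.86 in WT II (1.2). The 4 IGMT copies IGMT1 to IGMT4, which may share reads, summed to 50.78 FPKM in WT III and 9.84 in WT II (2.05). The 11 genes of tryptophan and core synthesis had none past 2-fold and a median of -0.28, with CYP79B3, which makes indole aldoxime from tryptophan, at 62.74 FPKM in WT III and 105.66 in WT II (-0.94).

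Of 10 sulfur genes 4 were higher, against 1.55% of all compared genes, and none lower (median 0.74). Of 16 nitrogen genes 2 were lower, against 4.38% of all compared genes, and none higher (median -0.13). SDI1, which is induced by sulfur shortage, was at 64.43 FPKM in WT III and 19.13 in WT II (1.5), and LSU1, of a family with the same habit, at 5.25 in WT III and 0.81 in WT II (1.59). APR1, for the reductase of activated sulfate, was at 255.51 FPKM in WT III and 94.03 in WT II (1.23), and the other reductase genes APR3 (0.81) and APR2 (0.67) lay within 2-fold. The nitrate reductase gene NIA1 was at 11.05 FPKM in WT III, 47.44 in WT II and 16.33 in WT I (-2.21 for WT III minus WT II). ASN1, an asparagine synthetase gene, was at 0.05 in WT III and 2.4 in WT II (-1.90).

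Glutathione S-transferases are enzymes of detoxification, of which some also serve glucosinolate synthesis. Of 22 compared, 4 were higher, against 1.55% of all compared genes, and 1 was lower, against 4.38% (median 0.07). The largest difference on the higher side was that of GSTF6 (AT1G02930), at 39.54 FPKM in WT III and 2.06 in WT II (3.53), followed by its neighbour GSTF7 (AT1G02920) at 30.09 in WT III and 2.37 in WT II (3.00). These copies can share reads, and their sum was 69.63 FPKM in WT III and 4.43 in WT II (3.5). GSTF11 was at 55.89 FPKM in WT III and 16.62 in WT II (1.49), and GSTU20 at 910.24 in WT III and 380.82 in WT II (1.05). Both of the last are known for their link to aliphatic glucosinolates. GSTU18 was the lower one, at 36.42 in WT III and 68.7 in WT II (-1.10).

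Of 20 salicylate genes 4 were higher, against 1.55% of all compared genes, and none lower (median 0.41). CBP60G, a calmodulin-binding factor that drives salicylate synthesis, was at 61.06 FPKM in WT III and 10.76 in WT II (2.2). The pathogenesis-related genes PR2 (62.19 FPKM in WT III, 13.25 in WT II, 1.95) and PR5 (110.93 in WT III, 32.44 in WT II, 1.54) and the factor WRKY54 (14.87 in WT III, 5.15 in WT II, 1.17) were the others. Other regulators of the list lay within 2-fold, such as EDS1 (0.45), PAD4 (0.33) and SARD1 (0.32).

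Among 26 jasmonate genes 7 were lower, against 4.38% of all compared genes, and none higher. Their median was -0.28, with 9 genes above 0 and 17 below it. None of 14 ethylene genes passed 2-fold. VSP1, a vegetative storage protein gene widely used as a jasmonate reporter, was at 3.91 FPKM in WT III, 41.45 in WT II and 658.13 in WT I (-3.31 for WT III minus WT II). With its copy VSP2 it summed to 105.22 in WT III and 317.48 in WT II (-1.79). LOX2, of jasmonate synthesis, was at 0.33 FPKM in WT III and 3.78 in WT II (-2.05), and JAZ10, a repressor that jasmonate induces, at 8.97 in WT III and 20.77 in WT II (-1.33). Of the 7, AOC1 and AOC2 belong to a family whose copies can share reads, and the 4 AOC copies together were at 161.48 in WT III and 130.05 in WT II (0.11). Early stress genes had 1 of 25 higher, CBF1 at 19.89 FPKM in WT III and 6.99 in WT II (1.18), and 1 lower, CYP94B3, which inactivates jasmonate, at 3.31 in WT III and 9.01 in WT II (-1.42).

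Transcripts of the phloem sucrose exporters SWEET11 and SWEET12 were lower in WT III. SWEET11 was at 58.73 FPKM in WT III, 213.67 in WT II and 16.43 in WT I, and SWEET12 at 69.92 in WT III, 243.94 in WT II and 32.59 in WT I. They had centred differences of -2.05 and -1.99 between WT III and WT II. Of 17 compared phloem genes 4 were lower, against 4.38% of all compared genes, and none higher (median -0.42), the others being the sieve-tube sucrose synthase gene SUS5 (-1.25) and the callose synthase gene CALS7 (-1.03). SUC2, which loads sucrose in companion cells, was at 206.0 FPKM in WT III and 162.99 in WT II (0.13), within 2-fold. Of 20 other sugar transport and sucrose use genes, 2 were higher, against 1.55% of all compared genes, and 2 lower, against 4.38% (median 0.05). STP13, a hexose importer, was at 21.67 FPKM in WT III and 6.55 in WT II (1.38), and SWEET4, of the sugar exporter family, at 2.65 in WT III and 0.32 in WT II (1.27). The lower ones were SWEET16, a vacuolar member of that family, at 1.29 FPKM in WT III and 3.66 in WT II (-1.23), and BFRUCT4, a vacuolar invertase gene, at 105.8 in WT III and 199.56 in WT II (-1.11). Starch genes had 2 of 27 lower, against 4.38% of all compared genes (median -0.03). These were BAM5 (7.31 FPKM in WT III, 18.38 in WT II, -1.42) and APL1 (53.29 in WT III, 107.97 in WT II, -1.21).

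The cuticle list had 4 of 32 genes lower, against 4.38% of all compared genes, and none higher (median -0.45). CER4, the reductase that makes primary alcohols of wax, was at 1.31 FPKM in WT III, 13.09 in WT II and 135.02 in WT I (-2.81 for WT III minus WT II). CER1, of alkane synthesis, was at 124.27 FPKM in WT III and 355.28 in WT II (-1.71), and MAH1, which oxidises those alkanes, at 97.14 in WT III and 237.84 in WT II (-1.48). The lipid transfer gene LTP1 was at 2.14 FPKM in WT III, 7.15 in WT II and 2394.7 in WT I. CER6, of wax chain elongation, by contrast, was at 422.22 in WT III and 413.92 in WT II (-0.17). Stomatal lineage genes had 1 of 10 lower (median -0.23), GC1, at 4.13 FPKM in WT III and 9.62 in WT II (-1.25). GC1 is also known as GASA9 and is counted among the GASA genes as well. EPFL9, for the peptide stomagen, was at 0.62 in WT III and 1.71 in WT II (-0.94), while the guard cell factor FAMA lay within 2-fold (-0.33).

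Wall genes of growing tissue differed gene by gene. Of 18 compared cell expansion genes 1 was higher, against 1.55% of all compared genes, and 4 were lower, against 4.38% (median -0.33). On FPKM as deposited the counts were the same and the median was -0.12. XTH18, which remodels xyloglucan, was at 9.81 FPKM in WT III, 35.74 in WT II and 67.22 in WT I (-1.97), XTH19, its close copy, at 0.13 in WT III and 2.39 in WT II (-1.79), and the expansin gene EXPA8 was listed at 0 in WT III against 2.45 in WT II. EXPA15 was the higher one, at 98.09 FPKM in WT III and 39.38 in WT II (1.09). Extensins and arabinogalactan proteins are structural wall glycoproteins. Among 21 compared, 1 was higher, against 1.55% of all compared genes, and 5 lower, against 4.38% (median -0.07). Without centring these counts were unchanged and the median was 0.13. EXT3, an extensin gene, was at 28.86 FPKM in WT III, 3.05 in WT II and 11.33 in WT I (2.68). The proline-rich protein gene PRP2 was at 0.22 FPKM in WT III, 2.57 in WT II and 437.45 in WT I (-1.75), and PRP4 at 7.64 in WT III, 23.11 in WT II and 583.48 in WT I (-1.68). FLA9, a fasciclin-like gene, was at 12.11 in WT III, 34.13 in WT II and 245.79 in WT I (-1.62).

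All 16 aquaporin genes had a negative centred difference, and 4 were lower by 2-fold, against 4.38% of all compared genes (median -0.61). On FPKM as deposited 3 were lower and the median was -0.41. Without centring PIP2;5, PIP1;4 and PIP2;8 were slightly higher in WT III. TIP2;1, a water channel of the vacuole, was at 106.04 FPKM in WT III, 302.62 in WT II and 1349.06 in WT I (-1.71). PIP2B, of the plasma membrane, was at 51.49 FPKM in WT III and 126.36 in WT II (-1.48), and together with its near-identical copy PIP2;3 at 87.64 in WT III and 191.96 in WT II (-1.32). PIP2;6 followed, at 24.5 in WT III and 51.5 in WT II (-1.24).

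**Figure D5:**
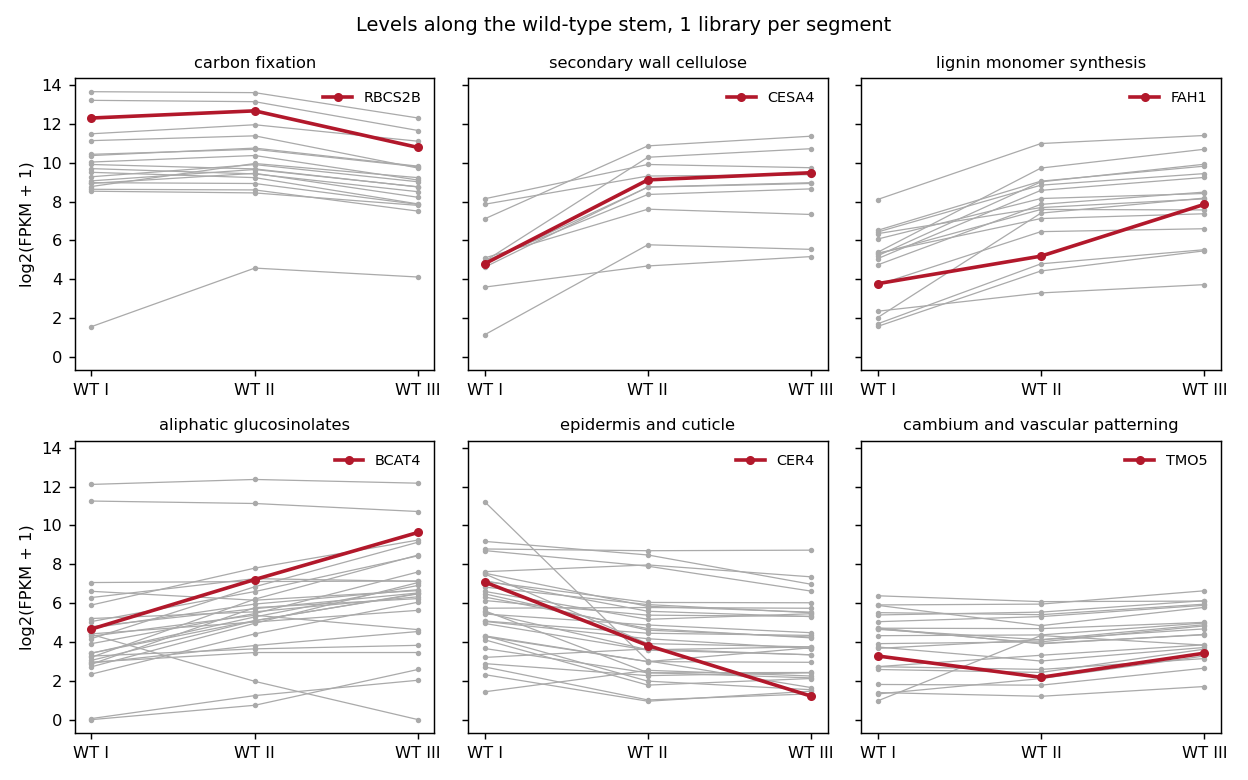
Each line is a compared gene of the list named above the panel, with log2(FPKM + 1) in WT I, WT II and WT III from left to right, 1 library per segment, and 1 gene per panel drawn in red. RBCS2B is lower in WT III than in WT II, CESA4 is level between them, FAH1 and BCAT4 are highest in WT III, CER4 is lower at each step and TMO5 is lowest in WT II.

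Cell cycle and cambium genes leaned to the higher side in WT III, mostly within 2-fold. Of 26 cell cycle genes 22 had a positive centred difference, 1 was higher by 2-fold and none lower, with a median of 0.40. PCNA2, a clamp of the replication fork, was at 11.05 FPKM in WT III, 3.95 in WT II and 21.19 in WT I (1.08 for WT III minus WT II), PCNA1 at 6.0 in WT III and 2.46 in WT II (0.82), and MCM2, of the replicative helicase, at 3.77 in WT III and 1.47 in WT II (0.75). The 9 replication genes compared had differences of 0.29 or more and a median of 0.56. With a pseudocount of 5 the list median was 0.18 and no gene was past 2-fold.

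Of 22 genes of cambium and vascular patterning 20 had a positive difference, with a median of 0.38. TMO5, a factor of vascular cell divisions, was at 9.71 FPKM in WT III, 3.53 in WT II and 8.7 in WT I (1.04), and was the 1 gene past 2-fold. LBD4, which lay just within that limit, was at 11.36 FPKM in WT III and 4.39 in WT II, and WOX14, of the cambium, at 8.69 in WT III and 3.33 in WT II (0.96). The receptor gene PXY was at 58.2 FPKM in WT III and 38.52 in WT II (0.38), and the gene for its ligand, CLE41, at 68.8 in WT III and 45.38 in WT II (0.39).

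Among 35 auxin genes 4 were higher, against 1.55% of all compared genes, and 2 lower, against 4.38% (median 0.30). The influx carrier gene LAX2 was at 36.4 FPKM in WT III, 6.44 in WT II and 34.45 in WT I (2.13 for WT III minus WT II), so it was lowest in the middle segment. AUX1, another influx carrier, was at 182.25 FPKM in WT III and 75.51 in WT II (1.06). The Aux/IAA repressor genes went both ways, with IAA13 at 61.93 in WT III and 24.27 in WT II (1.11) and IAA7 at 169.86 in WT III and 337.96 in WT II (-1.19).

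For cytokinin, 1 of 18 was higher and 1 lower (median 0.06). These were CKX6, which degrades cytokinin, at 14.14 FPKM in WT III and 2.57 in WT II (1.88), and IPT7, which makes it, at 3.32 in WT III and 16.5 in WT II (-2.22). Of 17 gibberellin and GASA genes 2 were higher, against 1.55% of all compared genes, and 5 lower, against 4.38% (median -0.25). GASA peptides, small cysteine-rich proteins named for their response to gibberellic acid, had 4 of 8 genes lower, against 4.38% of all compared genes, and 1 higher, with 7 of 8 below 0 and a median of -1.0. GASA6 was at 7.07 FPKM in WT III and 68.92 in WT II (-3.32), and GASA1 at 9.51 in WT III and 61.64 in WT II (-2.78), whereas GASA5 was at 7.87 in WT III and 1.65 in WT II (1.54). Brassinosteroid genes had 2 of 16 lower, against 4.38% of all compared genes (median -0.34). These were BEE3 (0.61 FPKM in WT III, 2.26 in WT II, -1.22) and BEN1 (3.6 in WT III, 7.31 in WT II, -1.05).

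Folding genes leaned to the higher side. All but 1 of 17 genes for folding in the endoplasmic reticulum had a positive centred difference, the median was 0.59 and 1 was higher by 2-fold. That gene was BIP2, a lumenal chaperone, at 89.92 FPKM in WT III, 36.39 in WT II and 180.13 in WT I (1.08), but with its near-identical copy BIP1 it summed to 167.82 in WT III and 79.53 in WT II, which lay within 2-fold (0.87). The calreticulin gene CRT1 was at 142.17 FPKM in WT III and 62.87 in WT II (0.96). Of 25 heat shock genes 3 were higher, against 1.55% of all compared genes, and none lower (median 0.29). On FPKM as deposited 7 were higher, against 3.05%. The heat shock factor HSFA4A was at 82.61 FPKM in WT III and 28.68 in WT II (1.29), HSFA2 at 207.87 in WT III and 87.87 in WT II (1.03), and the chaperone HSP90.1 at 127.06 in WT III and 53.39 in WT II (1.03).

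In the list of drought and cold, 3 of 25 genes were higher, against 1.55% of all compared genes, and 2 lower, against 4.38% (median -0.06). GolS2, of raffinose synthesis, was at 126.52 FPKM in WT III, 47.62 in WT II and 0.15 in WT I (1.19 for WT III minus WT II), the dehydrin LTI30 at 81.36 in WT III and 27.75 in WT II (1.32), and P5CS1, of proline synthesis, at 7.55 in WT III and 27.71 in WT II (-1.95). KIN2 was at 129.83 FPKM in WT III and 41.78 in WT II (1.41), and with its copy KIN1 at 131.52 in WT III and 45.22 in WT II (1.32). Senescence genes had 4 of 16 lower, against 4.38% of all compared genes, and none higher (median -0.21). Among the 4 were DIN6, which is ASN1 above, and SEN1 at 0.35 FPKM in WT III and 2.83 in WT II (-1.71). In the clock list GI was the 1 of 22 past 2-fold, at 12.77 FPKM in WT III and 4.72 in WT II (1.07), with a list median of -0.01. RVE4, a morning factor, was at 57.92 in WT III and 95.27 in WT II (-0.91). The labels give no hour of harvest for either segment.

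Lists with few compared genes were near the level of all genes. Flavonoid synthesis had 8 of 21 genes compared, with 1 higher, MYB111 (2.1 FPKM in WT III, 0.31 in WT II, 1.04), and 1 lower, MYBL2 (6.27 in WT III, 12.39 in WT II, -1.08). Suberin and Casparian strip genes had 5 compared and none past 2-fold, the widest being those of the transporter genes ABCG20 (2.87 FPKM in WT III, 2.02 in WT II, 0.16) and ABCG2 (2.18 in WT III, 1.5 in WT II, 0.15). Floral organ genes had 9 compared, with SEP1 lower at 0.78 FPKM in WT III and 2.15 in WT II (-1.03) and AGL42 within 2-fold at 19.05 in WT III and 28.56 in WT II (-0.76). The 18 reference genes had none past 2-fold (median -0.02), and their differences ran from -0.40 for ACT8 to 0.43 for ACT7. None of 17 genes for H3K4 methylation passed 2-fold (median -0.02). WDR5A, of the core shared by H3K4 methyltransferase complexes, was at 4.24 FPKM in WT III and 1.97 in WT II (0.62). For ATX1 (AT2G31650) itself the level was 3.54 FPKM in WT III and 6.09 in WT II (-0.84).

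Outside these groups, several of the widest differences on the lower side were those of genes with their highest level in WT I. GER3 (AT5G20630), a germin-like protein gene, was at 0.12 FPKM in WT III, 67.05 in WT II and 1682.09 in WT I (-6.13 for WT III minus WT II), and its relative GER1 at 115.37 in WT III, 508.28 in WT II and 1192.49 in WT I (-2.33). BAS, for the triterpene enzyme beta-amyrin synthase, was at 0.11 FPKM in WT III, 12.85 in WT II and 114.86 in WT I (-3.84). CWLP, a gene for a proline-rich linker between wall and membrane, was at 2.94 in WT III, 30.95 in WT II and 87.83 in WT I (-3.22). Each of these genes was lower at both steps down the stem.

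Other genes of that set had their highest level in WT II. LpxC3, of lipid A-like synthesis, was listed at 0 in WT III and in WT I and was at 11.52 FPKM in WT II. It was not among the genes whose near-identical copies were summed. Reads that it may share with related genes were not examined, so its own level is uncertain. MDHAR (AT3G09940), a monodehydroascorbate reductase gene, was at 0.43 FPKM in WT III, 10.21 in WT II and 5.48 in WT I (-3.17 for WT III minus WT II), and PLIM2b, an actin-bundling LIM protein gene, at 1.74 in WT III, 13.41 in WT II and 7.03 in WT I (-2.60). At about 19 fragments per FPKM and kb, the WT III values of GER3, BAS and MDHAR rest on few fragments. On the higher side EXPB3, a beta-expansin gene, was at 57.27 FPKM in WT III, 12.23 in WT II and 72.93 in WT I (1.94), so that, as for LAX2 and EXT3, WT II held the lowest of the 3 wild-type levels.

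Genes near the limits show how sharp the rule is. At the limit of 2-fold AT3G09540, counted as higher, was at 16.45 FPKM in WT III and 6.58 in WT II, and AT5G40150, just short of it, at 21.11 in WT III and 8.62 in WT II. At the filter of 1 FPKM, 107 genes lay between 1 and 1.05 FPKM in the higher library and were kept, and 106 lay from 0.95 to under 1 and were not.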

How the data were processed

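RNA was extracted from inflorescence stem segments, and the libraries were made by a sequencing company, per the labels' protocols. Per the file headers, the authors deposited gene-level FPKM, 1 table for each library, with at most 2 decimals. Trimmomatic, HISAT, Bowtie2, RSEM and the build TAIR10 are named, without versions or roles, per the submitters' processing notes. Strandedness and the handling of reads that fit several genes are not given in the sources used here, so near-identical copies were also summed, a choice made after seeing the data. Of 39 genes named by rule, 10 overlap another gene in the TAIR10.1 annotation, 8 of them 1 that the files list, among them BCAT4, EXT3, GASA6 and the 3 CESA genes; their reads could not be told apart from those of the neighbour without strand.

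Differences of log2(FPKM + 1) were computed in Python 3.11 with pandas and numpy, centred on their median over genes that reached 1 FPKM in WT III or WT II, and called at 2-fold; no count test was run because the values are FPKM. Fragment depth was read from the steps of low values in short genes (250 to 900 bp). The depth, and a length taken off each gene, were chosen to put the most values within 0.15 of a whole number. That largest share was 71.2% to 72.4% in the 4 libraries. Evenly spread values would give 30% at a depth fixed in advance, which is not a like measure for a largest share. The pipeline was tested on simulated data. Groups were taken from sample titles, and the 6 chromatin and input samples were not analysed here.

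The comparison, the 47 gene lists (1074 genes, 1059 of them listed and 904 compared) and the marker sets were chosen with earlier results of these data known. Lists of sinapate, NDH and plastid ribosome genes were added after seeing the values. The NDH and plastid ribosome lists were taken by how gene symbols begin, so members with other symbols are left out. Genes were named by 1 rule: the 15 largest differences on each side among genes with a symbol and at least 10 FPKM in the higher library, at least the 2 widest of each list described, and 10 fixed genes; further ones were picked after seeing their values, to show relatives, pathway neighbours and members of the other direction. Not every gene past 2-fold is reported here by name.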

Additional observations from a re-analysis of the deposited data

How the results depend on the processing

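The counts of 273 higher and 772 lower genes depended on the scale. They were 538 and 444 without centring, 606 higher with a pseudocount of 0.1, 103 and 330 with a pseudocount of 5, and 52 and 176 at 3-fold. Median-of-ratios scaling (301 and 746), rescaling to equal sums (345 and 855), no filter (321 and 694), a filter of 5 FPKM (213 and 594) and nuclear genes only (269 and 755) stayed within 1.5 times. The 39 genes recomputed singly, the 15 largest differences on each side and the 10 fixed genes, kept their direction and side of 2-fold in each setting that kept them. Genes named for their lists did not all do so. Without centring no gene was lower in the NAC, flavonoid, glutathione S-transferase, auxin and floral lists, and with a pseudocount of 5 no gene was higher in the cell cycle, cambium, clock, flavonoid, early stress, gibberellin and lignin polymerisation lists, and none lower in the NAC, aliphatic glucosinolate, glutathione S-transferase, stomatal, brassinosteroid, flavonoid, early stress and floral lists. Sizes of low genes moved most, GER3 from -8.48 at a pseudocount of 0.1 to -3.95 at 5 and BAS from -6.17 to -1.94. Of the 47 list medians, rounded to 2 decimals, 32 did not change sign over the 8 settings. That of secondary wall cellulose, counted among the 32, rounded to 0 from below with a pseudocount of 0.1. The other 15 medians lay close to 0, within -0.23 to 0.28. Medians near the limit crossed it: without centring, antenna, photosystem and carbon fixation genes were at -0.89, -0.93 and -0.93, and photorespiration passed it under 3 settings, at -1.02, -1.0 and -1.02. No paired analysis was possible because each segment is 1 library. For the same reason no library could be left out. Without replicates, differences of this size between 2 libraries of the same segment cannot be judged, and segment and library cannot be told apart.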

Other observations

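Several genes with wide differences have no symbol in the files or in RefSeq and stand in none of the lists. On the higher side AT2G38790 was at 56.67 FPKM in WT III and 4.27 in WT II (3.25), AT1G06830 at 13.13 in WT III and 0.5 in WT II (3.03) and AT1G76960 at 57.13 in WT III and 6.1 in WT II (2.83). On the lower side AT2G10940 was at 0.31 FPKM in WT III, 62.6 in WT II and 1060.11 in WT I (-5.80 for WT III minus WT II), AT1G44830 at 1.59 in WT III, 27.27 in WT II and 209.94 in WT I (-3.65), and AT5G15780 at 0.21 in WT III, 10.86 in WT II and 184.23 in WT I (-3.49). The last 3 were lower at both steps down the stem.

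Further genes outside the lists were higher in WT III and belong to amino acid and metal supply. AK3, for an aspartate kinase, at the head of the pathway to methionine, was at 77.96 FPKM in WT III, 20.85 in WT II and 2.89 in WT I (1.65). IIL1, for the large subunit of the isomerase that also serves glucosinolate chain elongation, was at 227.86 in WT III and 90.47 in WT II (1.12). NAS1, of synthesis of the metal chelator nicotianamine, was at 44.23 FPKM in WT III, 13.87 in WT II and 0.08 in WT I (1.40). These genes were picked after their values were seen, from the 40 largest differences on each side among named genes outside the lists.

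The library labelled atx1 II shares WT II as the segment it is matched to, and its ATX1 level was 21.76 FPKM, against 6.09 in WT II. That level shows no loss of the transcript. Whether the label is wrong or the allele keeps transcripts was not tested. Its levels for some of the widest differences are given beside those of WT III as a description only, and they lay on both sides of WT III. The clock genes CCA1 and LHY were at 121.08 and 108.31 FPKM in this library, against 1.62 and 1.64 in WT III. No hour of harvest is given, so genotype, hour and library cannot be told apart here. In the library labelled atx1 II the levels were 582.08 FPKM for GSTF6, 1570.77 for MAM1, 948.01 for BCAT4, 294.64 for CYP79F1, 159.96 for IPMI2 and 14.38 for EXPB3. In WT III they were 39.54 for GSTF6, 562.11 for MAM1, 796.36 for BCAT4, 354.73 for CYP79F1, 193.42 for IPMI2 and 57.27 for EXPB3. Among lower genes, GASA6 was at 0.21 FPKM in the library labelled atx1 II and 7.07 in WT III, and NIA1 at 358.18 in the library labelled atx1 II and 11.05 in WT III.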
